A study of Mus musculus with 12 samples.

Results

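A set of 10 genes in wide use as macrophage markers was followed through the growth of mouse skeletal muscle. They are *Adgre1*, *Cd68*, *Csf1r*, *Cx3cr1*, *C1qa*, *C1qb*, *C1qc*, *Mrc1*, *Cd163* and *Lyve1*, chosen by name as markers of the lineage, and they are 10 of the 55450 genes counted. All 10 had enough reads to be tested, among 19276 tested genes, with 34 reads in the lowest library (*Cx3cr1* at 7 wks) and 21176 in the highest (*Mrc1* at E18.5). RNA was taken from the tibialis anterior (TA), a muscle of the lower hindlimb, of wild-type (WT) mice on the 129Pas background. Mice were fetuses at E18.5 (embryonic age in days), 2 wks old or 7 wks old, with 4 mice at each age and no treatment. The study sequenced this series to follow splicing as muscle matures after birth. Each library is polyadenylated RNA of whole muscle pieces, so all cell types of the tissue contribute. Fewer macrophages, less of a transcript in each macrophage and a larger share of RNA from other cells cannot be told apart. Different mice were used at each age, and p-values measure the spread between mice.

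Macrophages are phagocytes that seed most tissues before birth and are later maintained from local precursors and blood monocytes. In skeletal muscle they lie in the connective tissue between fibers and around vessels, clear debris and take part in growth and repair. The colony stimulating factor 1 receptor, encoded by *Csf1r*, passes the survival signal on which the lineage depends, and the transcription factor PU.1, encoded by *Spi1*, drives many of its genes.

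Library totals ran from 63018968 to 123449246 counts. Levels are given in CPM, read counts relative to the library total, after scaling with the trimmed mean of M-values (TMM), and those of different genes are compared only per kilobase (kb) of transcript. The scaling factors were between 1.62 and 1.77 in fetuses, between 0.81 and 0.95 in 2-wk mice and between 0.67 and 0.70 in 7-wk mice. Over all tested genes, scaling to total counts instead moved the median change on the log2 scale from -0.09 to -1.02 between E18.5 and 2 wks and from -0.03 to -0.38 between 2 and 7 wks. Libraries also differed in how counts depended on the GC content of transcripts. Between 40 and 60% GC, the fitted trend was -2.24 to -0.14 (log2) at E18.5, then 0.76 to 1.04 at 2 wks and finally -0.41 to 0.92 at 7 wks. Results were therefore computed also with total-count scaling and with these trends removed. Muscle RNA was present in all 12 libraries. The muscle gene *Acta1* (skeletal alpha-actin) was at 1811 to 6942 CPM at E18.5 and at least 31847 CPM later. Which muscle the RNA came from was not tested.

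The changes of the 10 genes from E18.5 to 2 wks differed in direction and with the scaling. Of the 10, 4 fell (*Adgre1*, *Cx3cr1*, *Mrc1* and *Lyve1*) and 2 rose (*C1qa* and *C1qc*), at an adjusted p under 0.05 in edgeR's quasi-likelihood test. Over all tested genes, 34.2% fell and 31.5% rose in that interval. With total-count scaling 7 of the 10 fell and 0 rose, against 61.8% and 13.2% of all tested genes, and with the GC trends removed 5 fell and 0 rose, against 39.7% and 26.8%. From 2 to 7 wks 9 of the 10 fell and 0 rose, against 13.9% and 13.5% of all tested genes. Over the whole span, 7 wks against E18.5, 9 fell and 0 rose, against 37.1% and 34.3%. The gene that missed the threshold was *Adgre1* after 2 wks and *C1qa* over the whole span. The median log2 fold change of the 10 was -0.78, -1.34 and -1.82 in these comparisons, beside -0.09, -0.03 and -0.09 over all tested genes.

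**Figure D1:**
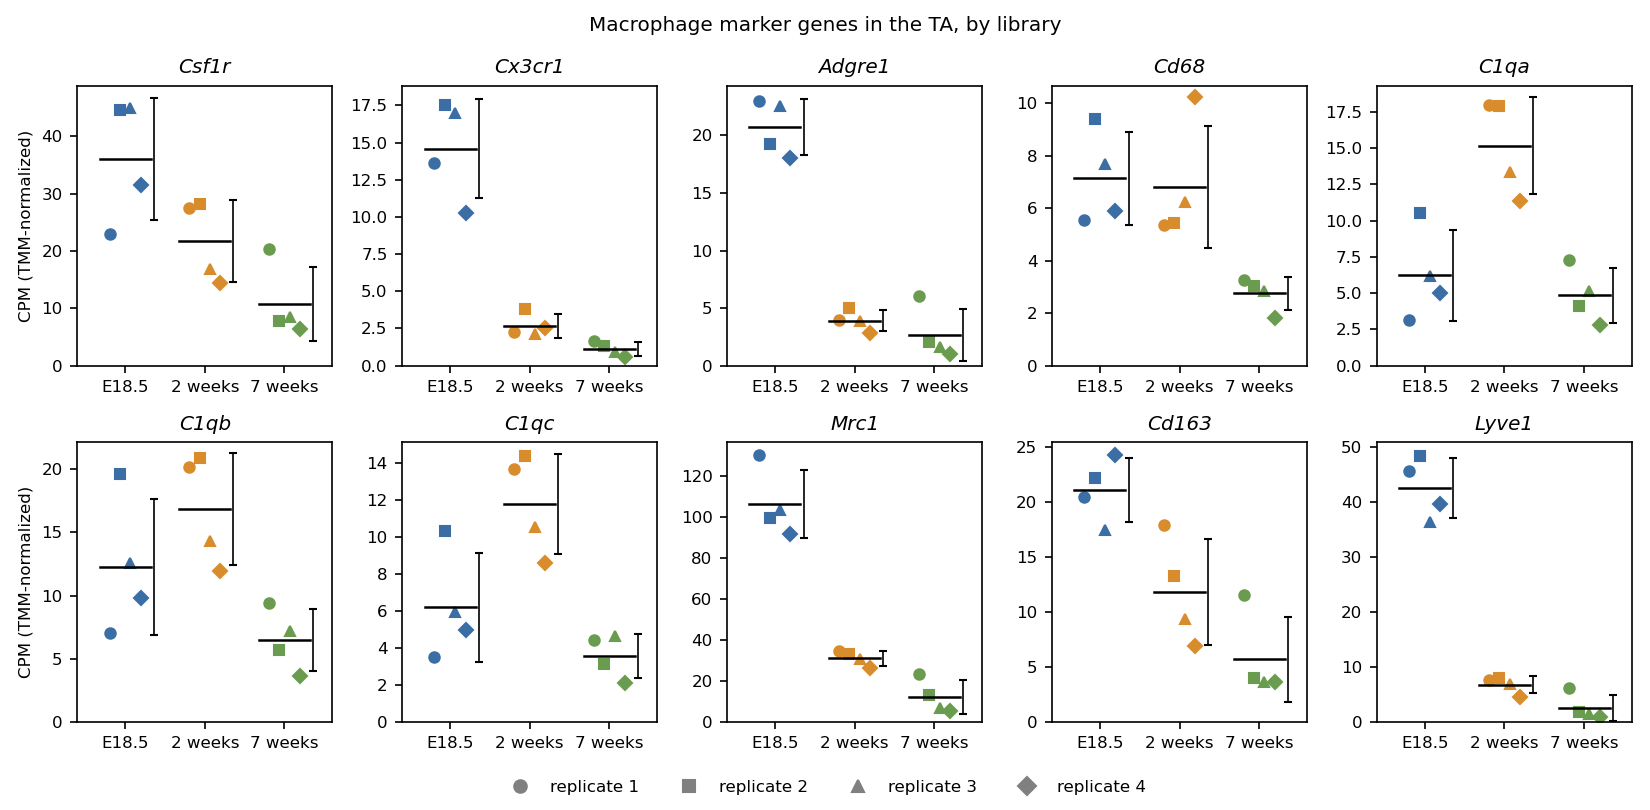
Levels of the 10 genes in CPM after TMM scaling (vertical axis, linear, from 0, a separate range for each gene) at E18.5, 2 wks and 7 wks. Each symbol is the library of one mouse, lines are means of 4 mice and bars 1 SD. The symbols of *Adgre1*, *Cx3cr1*, *Mrc1* and *Lyve1* at E18.5 lie above all later ones, whereas those of *C1qa* are highest at 2 wks.

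*Csf1r* is the receptor for the growth factors CSF1 and IL-34. Its levels were 23.0, 44.6, 44.8 and 31.5 CPM in replicates 1 to 4 at E18.5, 27.5, 28.2, 16.8 and 14.5 CPM at 2 wks, and 20.3, 7.77, 8.43 and 6.40 CPM at 7 wks. Neighboring ages overlapped, and replicate 1 at 7 wks stood well above the other mice of its age. The log2 fold change to 2 wks was -0.73 ± 0.35 (SE), which missed the threshold (adjusted p = 0.0833, edgeR quasi-likelihood test with Benjamini-Hochberg adjustment). It passed without replicate 1 of E18.5 (-0.89, edgeR adjusted p = 0.0476) or replicate 1 of 7 wks (-0.72, edgeR adjusted p = 0.0246). With the GC trends removed it was -1.29 and passed (edgeR adjusted p = 0.00569). After 2 wks *Csf1r* fell by 1.02 ± 0.36 on the log2 scale (edgeR adjusted p = 0.0472), a call lost with the GC trends removed (-0.91, edgeR adjusted p = 0.0639) and kept in 4 of the 12 fits that left out one library each. It was lost without replicate 3 or 4 of E18.5, replicate 1, 2 or 3 of 2 wks, or replicate 2, 3 or 4 of 7 wks, at log2 fold changes of -1.12 to -0.84. Between E18.5 and 7 wks it fell by 1.75 ± 0.36 with no overlap (edgeR adjusted p = 0.000637).

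*Cx3cr1* encodes the receptor for fractalkine, a membrane-bound chemokine, and is carried by monocytes and many tissue macrophages. It gave 13.6, 17.5, 17.0 and 10.3 CPM at E18.5, 2.25, 3.82, 2.11 and 2.51 CPM at 2 wks, and 1.69, 1.34, 0.92 and 0.56 CPM at 7 wks. No age overlapped another. The fall was 5.45-fold to 2 wks (log2 fold change -2.45 ± 0.31, edgeR adjusted p = 1.55e-05) and a further 2.39-fold to 7 wks (-1.26 ± 0.31, edgeR adjusted p = 0.00966). The gene for its ligand, *Cx3cl1*, picked out after its values were seen, moved the other way to 2 wks, from 0.58 to 1.42 CPM at E18.5 to 1.96 to 4.18 CPM (log2 fold change 1.55, edgeR adjusted p = 0.000379). That rise missed the threshold with the GC trends removed (0.52, edgeR adjusted p = 0.0772) and with total-count scaling (0.59, edgeR adjusted p = 0.0752). The fall of *Cx3cr1* passed under both.

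*Adgre1* encodes F4/80, the adhesion receptor most often used to stain mouse macrophages. Its levels were 23.0, 19.2, 22.6 and 18.1 CPM at E18.5, 3.94, 4.98, 3.92 and 2.84 CPM at 2 wks, and 6.04, 2.07, 1.62 and 1.06 CPM at 7 wks. All fetal libraries lay above all later ones, and at 7 wks replicate 1 lay above every 2-wk library while the other 3 lay below them. *Adgre1* fell by 2.40 ± 0.41 on the log2 scale to 2 wks (edgeR adjusted p = 0.000186). The later log2 fold change of -0.55 ± 0.40 missed the threshold (edgeR adjusted p = 0.333). Without replicate 1 of 7 wks it was -1.31 and passed (edgeR adjusted p = 0.00305). In that fit all 10 genes fell after 2 wks, as did 2511 of all 19929 genes tested in it.

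*Cd68* encodes a glycoprotein of the lysosomes of phagocytes. It gave 5.57, 9.39, 7.68 and 5.88 CPM at E18.5, 5.35, 5.42, 6.24 and 10.2 CPM at 2 wks, and 3.27, 3.04, 2.85 and 1.83 CPM at 7 wks. The first 2 ages overlapped and every 7-wk library was below them. The log2 fold change to 2 wks was -0.07 ± 0.26 (edgeR adjusted p = 0.834). A normal approximation from the SE, narrower than an interval of the test itself, gave 95% limits of -0.57 to 0.44. Total-count scaling gave a fall of 1.02 (edgeR adjusted p = 0.00203). After 2 wks *Cd68* fell by 1.31 ± 0.27 (edgeR adjusted p = 0.00306), under each of the 3 scalings. In replicate 4 at 2 wks *Cd68* was the highest of its age, whereas 8 of the other 9 genes were at their lowest in that library. Over all tested genes 27.1% were lowest there.

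The complement component C1q is assembled from the products of *C1qa*, *C1qb* and *C1qc*, made mainly by macrophages, and it starts the classical complement pathway by binding antibody complexes and dying cells. The genes lie side by side on the minus strand of mouse chromosome 4. In GRCm39 *C1qb* spans 136606009 to 136613511, *C1qc* 136616466 to 136620376 and *C1qa* 136623223 to 136626161. The annotated lncRNA gene *Gm69251* overlaps *C1qb* and *C1qc* on the other strand. Promoter sequences were at hand for 6 of the 10 genes (*Cd68*, *Cx3cr1*, *C1qb*, *C1qc*, *Mrc1* and *Cd163*), as RefSeq windows of GRCm38.p6 from 250 bases before to 50 after the start. Those of *C1qb* and *C1qc*, neighbors whose levels moved together, and of *Mrc1*, which moved differently, are shown up to the start, 5′ to 3′ along the gene. Capitals mark GAGGAA, the core of the element bound by PU.1, or its reverse complement TTCCTC. *C1qb* is from chr4:136886201-136886450 (minus strand), *C1qc* from chr4:136892915-136893164 (minus strand) and *Mrc1* from chr2:14229164-14229413 (plus strand).
C1qb: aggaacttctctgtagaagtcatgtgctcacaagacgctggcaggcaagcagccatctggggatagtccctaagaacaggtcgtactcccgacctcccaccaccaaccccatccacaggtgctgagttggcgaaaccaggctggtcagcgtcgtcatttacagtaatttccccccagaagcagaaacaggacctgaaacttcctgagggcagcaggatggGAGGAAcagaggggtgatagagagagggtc
C1qc: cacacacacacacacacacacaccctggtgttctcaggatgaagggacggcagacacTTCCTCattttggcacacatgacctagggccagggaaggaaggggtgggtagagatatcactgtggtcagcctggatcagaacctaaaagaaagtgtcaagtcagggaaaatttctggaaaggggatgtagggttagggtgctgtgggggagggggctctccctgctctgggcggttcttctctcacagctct
Mrc1: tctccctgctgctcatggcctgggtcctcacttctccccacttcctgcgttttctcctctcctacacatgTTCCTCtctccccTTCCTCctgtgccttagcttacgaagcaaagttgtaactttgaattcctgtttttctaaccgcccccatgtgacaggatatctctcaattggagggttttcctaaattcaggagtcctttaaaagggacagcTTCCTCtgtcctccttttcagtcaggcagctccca
GAGGAA was found on either strand in 4 of the 6 windows, with 1 match each for *C1qb* and *C1qc*, 3 for *Mrc1* and 2 for *Cd68*, and none for *Cx3cr1* or *Cd163*. It is a common word, present in 28.3% of the 32851 windows of the same 300 bases. The AP-1 element TGACTCA, which does not overlap it, was found in the window of *Cd68* (2 matches) and in 5.20% of all windows. Matches describe the letters of these windows and are not binding sites.

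*C1qa* stood at 3.14, 10.5, 6.20 and 5.01 CPM at E18.5, 18.0, 17.9, 13.4 and 11.4 CPM at 2 wks, and 7.26, 4.10, 5.18 and 2.80 CPM at 7 wks. Every 2-wk library exceeded every library of both other ages. *C1qa* rose 2.44-fold to 2 wks (log2 fold change 1.29 ± 0.35, edgeR adjusted p = 0.00484) and then fell 3.14-fold (-1.65 ± 0.35, edgeR adjusted p = 0.00409). Levels at 7 wks and E18.5 overlapped, with a log2 fold change of -0.36 ± 0.34 (edgeR adjusted p = 0.354).

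*C1qc* gave 3.51, 10.3, 5.96 and 4.95 CPM at E18.5, 13.7, 14.4, 10.6 and 8.60 CPM at 2 wks, and 4.41, 3.11, 4.63 and 2.13 CPM at 7 wks. *C1qb* gave 7.01, 19.6, 12.6 and 9.83 CPM at E18.5, 20.2, 20.9, 14.3 and 11.95 CPM at 2 wks, and 9.43, 5.68, 7.17 and 3.66 CPM at 7 wks. Both were lower in every 7-wk than in every 2-wk library, and in both replicate 2 of E18.5 reached into the 2-wk range, as did replicate 3 for *C1qb*. *C1qc* rose to 2 wks (log2 fold change 0.93 ± 0.32, edgeR adjusted p = 0.0201), a call lost without replicate 1 or 4 of E18.5 or replicate 2 of 2 wks (0.74 to 0.84). For *C1qb* the log2 fold change of 0.46 ± 0.32 missed the threshold (edgeR adjusted p = 0.225), and passed without replicate 2 of E18.5 (0.78, edgeR adjusted p = 0.0393). After 2 wks both fell, *C1qc* by 1.73 ± 0.33 (edgeR adjusted p = 0.00216) and *C1qb* by 1.38 ± 0.33 (edgeR adjusted p = 0.00809) on the log2 scale. Over the whole span *C1qb* fell by 0.92 ± 0.33 (edgeR adjusted p = 0.0218) and *C1qc* by 0.80 ± 0.32 (edgeR adjusted p = 0.0401), with overlapping ages. The first call was lost without replicate 2 of E18.5 or replicate 2 or 4 of 7 wks (-0.85 to -0.60), and the second in 6 of 12 such fits, at -0.82 to -0.43, the smallest again without replicate 2 of E18.5.

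The GC content of the C1q transcripts was 58.9% for *C1qa*, 56.1% for *C1qc* and 52.7% for *C1qb*, beside 53.5% for *Csf1r* and 52.7% for *Cd68*. The GC trends were positive in all 4 libraries of 2 wks and in replicates 3 and 4 of 7 wks, and negative in all 4 of E18.5. With the trends removed, the log2 fold changes to 2 wks were 0.11, 0.07 and 0.02 for *C1qa*, *C1qc* and *C1qb* (edgeR adjusted p = 0.763, 0.814 and 0.964), and with total-count scaling 0.37, 0.02 and -0.45, so no rise passed under either. The fall of all 3 after 2 wks passed under both. The size and calls of the C1q changes before 2 wks therefore depended on the scaling, as did the sign for *C1qb*. The direction after 2 wks did not.

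**Figure D2:**
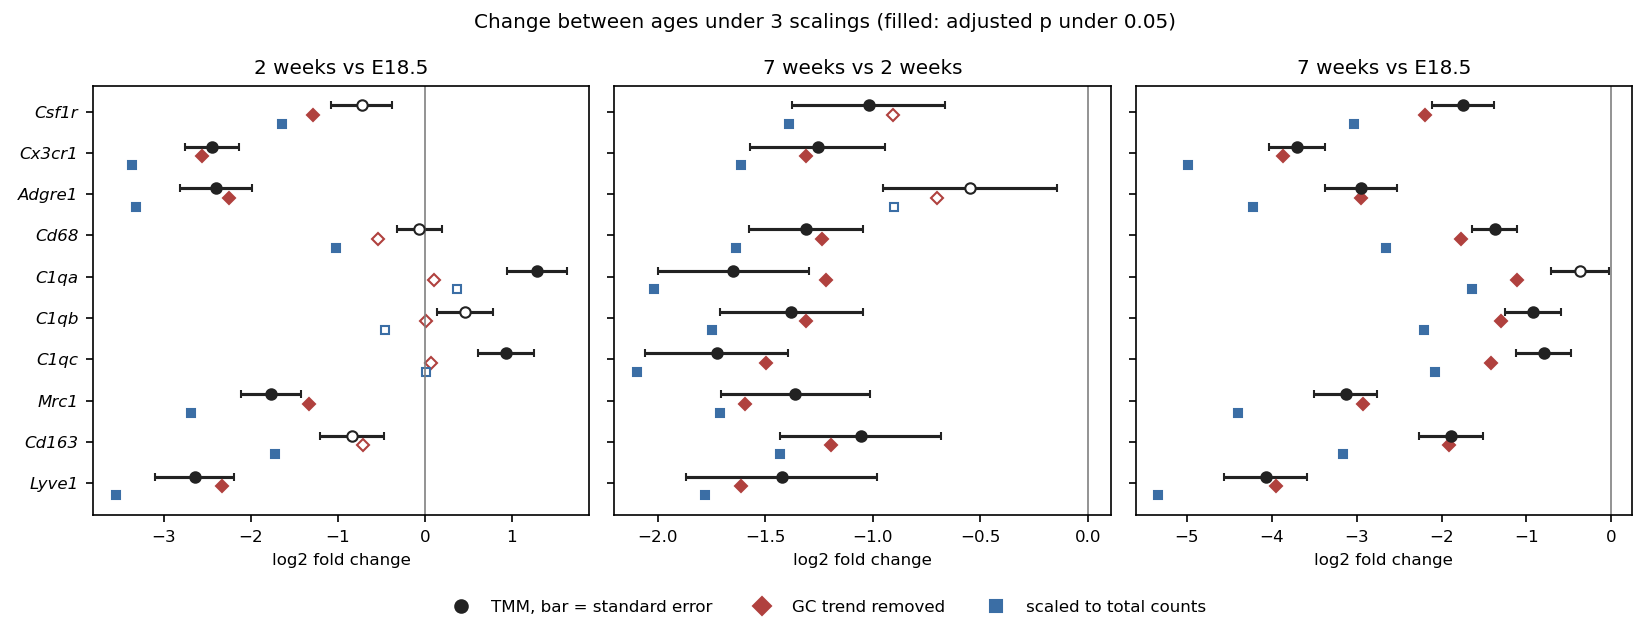
Log2 fold changes (horizontal axis) of the 10 genes in 3 comparisons of ages, with TMM scaling (circles, bars 1 SE), with each library's GC trend removed (diamonds) and with total-count scaling (squares); filled symbols have an edgeR adjusted p under 0.05. The C1q genes sit at or right of 0 from E18.5 to 2 wks except *C1qb* with total-count scaling (-0.45), and all symbols lie left of 0 from 2 to 7 wks.

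*Mrc1*, encoding the mannose receptor CD206, binds sugars on microbes and on glycoproteins due for clearance. Levels were 130.3, 99.7, 103.3 and 92.0 CPM at E18.5, 34.8, 33.0, 30.6 and 26.3 CPM at 2 wks, and 23.3, 13.03, 6.85 and 5.46 CPM at 7 wks. The ages did not overlap, and the 7-wk mice were spread over the widest fold range. *Mrc1* fell 3.41-fold to 2 wks (log2 fold change -1.77 ± 0.35, edgeR adjusted p = 0.000529) and 2.57-fold more by 7 wks (-1.36 ± 0.35, edgeR adjusted p = 0.0108).

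*Lyve1* encodes a hyaluronan receptor of lymphatic endothelium and of macrophages that sit along vessels. It gave 45.6, 48.4, 36.4 and 39.5 CPM at E18.5, 7.65, 7.99, 6.92 and 4.56 CPM at 2 wks, and 6.12, 1.76, 1.44 and 0.87 CPM at 7 wks. Only replicate 1 of 7 wks reached into the 2-wk range, and the fetal libraries were far above both. *Lyve1* had the largest fall of the 10 over the whole span, 16.8-fold (log2 fold change -4.07 ± 0.49, edgeR adjusted p = 5.06e-06), of which 6.27-fold came by 2 wks (edgeR adjusted p = 0.000174). Without replicate 1 of 7 wks the log2 fold change of *Lyve1* over the whole span was -4.96. Its later fall of 1.42 ± 0.45 (edgeR adjusted p = 0.0297) was lost without replicate 1, 2 or 3 of 2 wks or replicate 2, 3 or 4 of 7 wks (-1.41 to -1.14) and had a log2 fold change of -2.32 without replicate 1 of 7 wks.

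Since *Lyve1* is shared with lymphatic vessels, the lymphatic list was read beside it. Of its 6 genes 4 fell to 2 wks and 2 rose (*Flt4* and *Ccl21a*), rises that were lost both with the GC trends removed and with total-count scaling. *Prox1*, the master regulator of lymphatic identity, had a log2 fold change of -1.58, *Mmrn1* of -2.02 and *Reln* of -1.99. The summed level of the list was 48.3 to 73.1 CPM at E18.5, then 35.3 to 40.5 CPM at 2 wks and finally 24.0 to 28.5 CPM at 7 wks, with no defining marker at 0. The part of lymphatic cells in the level of *Lyve1* was not tested.

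*Cd163* encodes the receptor that takes up hemoglobin bound to haptoglobin. Levels were 20.5, 22.2, 17.5 and 24.3 CPM at E18.5, 17.9, 13.3, 9.39 and 6.87 CPM at 2 wks, and 11.5, 4.01, 3.66 and 3.66 CPM at 7 wks. Neighboring ages overlapped in 1 mouse each time, replicate 1 of 2 wks and replicate 1 of 7 wks. The log2 fold change to 2 wks was -0.83 ± 0.37 (edgeR adjusted p = 0.0594), and passed without replicate 1 of 2 wks (-1.07, edgeR adjusted p = 0.0291) or replicate 1 of 7 wks (-0.83, edgeR adjusted p = 0.00927). The one after 2 wks was -1.06 ± 0.37 (edgeR adjusted p = 0.0490), a fall that passed without replicate 4 of 2 wks or replicate 1 of 7 wks and was lost without any other library (-1.15 to -0.81). Without replicate 1 of 7 wks it was -1.65 (edgeR adjusted p = 0.00147). From E18.5 to 7 wks *Cd163* fell by 1.89 ± 0.38 with no overlap (edgeR adjusted p = 0.000496).

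The change to 2 wks minus the change after it was a separate contrast of the same fit. It passed for 4 genes, all positive, *C1qa* (2.94 ± 0.57, edgeR adjusted p = 0.00180), *C1qc* (2.66 ± 0.54, 0.00221), *C1qb* (1.84 ± 0.55, 0.0180) and *Cd68* (1.24 ± 0.44, 0.0387), that is, genes that fell more after 2 wks than before. The call of *Cd68* was lost in 7 of 12 fits without one library (0.73 without replicate 4 of 2 wks) and that of *C1qb* without replicate 1 or 2 of 2 wks (1.61 to 1.69). Over all tested genes 21.6% passed in that direction and 16.8% in the other. With the GC trends removed *C1qc* alone passed (1.57, edgeR adjusted p = 0.0160), where 15.2% of all tested genes passed as positive. With total-count scaling *C1qa* and *C1qc* passed as positive and *Adgre1* and *Cx3cr1* as negative, against 12.1% and 31.7% of all tested genes. For *Csf1r* (0.29 ± 0.61) and *Cd163* (0.22 ± 0.63) the contrast missed the threshold and its sign depended on the scaling.

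A ratio of 2 genes within a library does not depend on the scaling of that library, so each gene was also read as its ratio to *Csf1r* (log2 CPM with a prior count of 2, no test). From E18.5 to 2 wks the ratios of *C1qa*, *C1qb* and *C1qc* rose without overlap and those of *Adgre1*, *Cx3cr1*, *Mrc1* and *Lyve1* fell without overlap, while *Cd68* and *Cd163* overlapped. Of all tested genes, 35.2% had a non-overlapping higher and 9.42% a non-overlapping lower ratio to *Csf1r*. *C1qa* was 0.137, 0.236, 0.139 and 0.160 of *Csf1r* at E18.5 and 0.655, 0.637, 0.794 and 0.785 of it at 2 wks. *Lyve1* was 1.98, 1.09, 0.811 and 1.26 of *Csf1r* at E18.5 and 0.279, 0.284, 0.411 and 0.316 at 2 wks.

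With GC trends removed the 3 C1q ratios still did not overlap, and of the 4 lower ones that of *Mrc1* did. The shares of all tested genes were then 54.7% higher and 6.38% lower without overlap. A pair with like GC content is *C1qb* (52.7%) and *Csf1r* (53.5%), although the annotated coding transcripts of *C1qb* range from 49.8 to 57.0% GC. *C1qb* was 0.280 to 0.440 of *Csf1r* at E18.5, then 0.736 to 0.851 at 2 wks and finally 0.464 to 0.851 at 7 wks. After 2 wks *C1qa* alone changed its ratio without overlap (0.637 to 0.794, then 0.358 to 0.615), in the lower direction, as 1.5% of all tested genes did, while 19.5% had a higher ratio without overlap. With the GC trends removed the ratio of *C1qa* overlapped (log2 change -0.30), and that of *Lyve1* was lower without overlap (-0.88), as in 1.64% of all tested genes. Between E18.5 and 7 wks 2 genes were higher without overlap (*C1qa* and *C1qb*, 50.3% of all genes) and 4 lower (*Adgre1*, *Cx3cr1*, *Mrc1* and *Lyve1*, 6.44% of all genes). With *Cd68* in place of *Csf1r*, no C1q ratio was higher at 2 wks without overlap, so the higher C1q ratios depended on the reference gene.

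**Figure D3:**
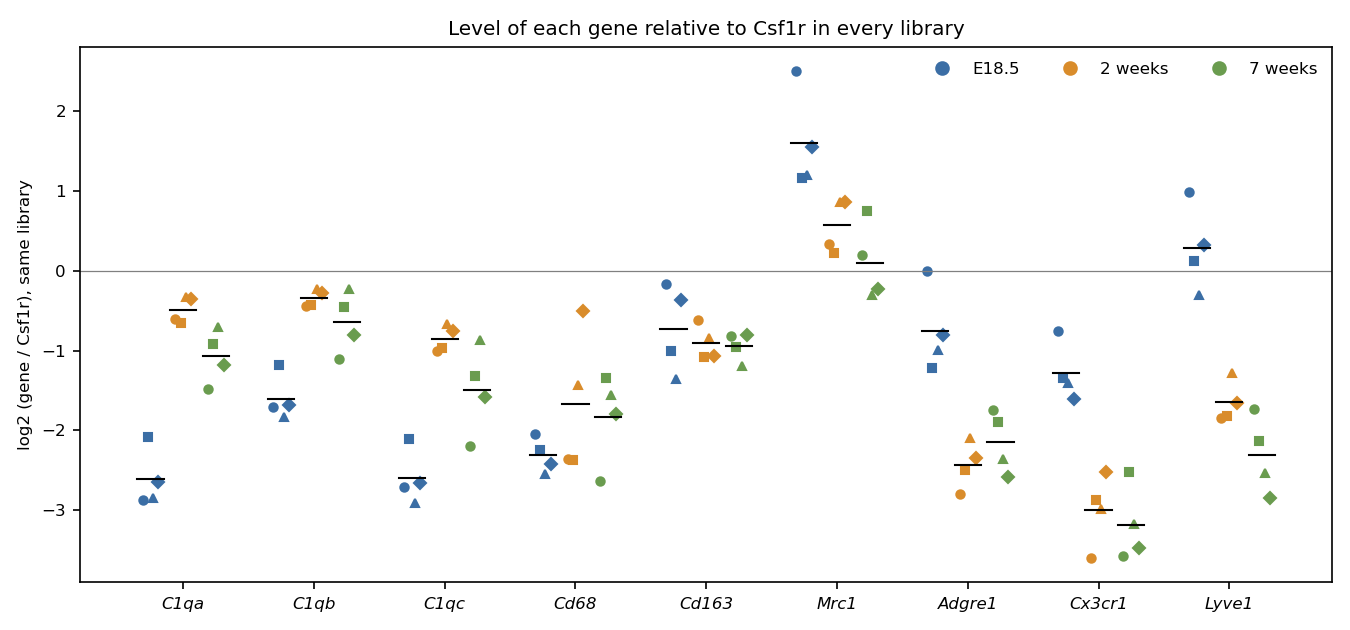
Log2 of the ratio of each gene to *Csf1r* in the same library (vertical axis, 0 is equal CPM) for the other 9 genes, with 4 mice at each age (symbols as replicates 1 to 4) and the mean as a line. The 3 C1q genes are higher at 2 wks than at E18.5 without overlap, *Mrc1*, *Adgre1*, *Cx3cr1* and *Lyve1* are lower without overlap, and *Cd68* and *Cd163* overlap.

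Proportions between some other pairs of the 10 were read too, without a share over all tested genes. *Lyve1* was 0.351 to 0.485 of *Mrc1* at E18.5, then 0.174 to 0.243 at 2 wks and finally 0.136 to 0.264 at 7 wks, so the fetal values stood apart. *Adgre1* and *Cd163*, with 47.4 and 47.7% GC, had ratios of 0.741 to 1.29, 0.221 to 0.418 and 0.292 to 0.524. *C1qb* and *Cd68*, also of like GC content, had ratios of 1.26 to 2.08, 1.17 to 3.85 and 1.86 to 2.87, and these ages overlapped. *C1qa* went from 0.449 to 0.537 of *C1qb* at E18.5 to 0.857 to 0.950 at 2 wks and 0.722 to 0.771 at 7 wks, with no overlap, although their GC contents differ.

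Per kb of the canonical transcript, *Mrc1* was the most abundant of the 10 at E18.5 with 19.4 ± 3.0 CPM per kb (SD, n = 4), followed by *Lyve1* with 10.3 ± 1.3. The others lay between 3.34 (*C1qc*) and 6.17 (*Adgre1*) CPM per kb, and *Adgre1*, *Cd68*, *Csf1r* and *C1qa* were within 1 SD of each other. At 2 wks *C1qa* led with 13.9 ± 3.1 CPM per kb. *C1qb* (6.66), *C1qc* (6.37), *Cd68* (5.69) and *Mrc1* (5.68) followed, and *Cx3cr1* was lowest with 0.71. At 7 wks *C1qa* still led with 4.45 ± 1.74 CPM per kb and *Cx3cr1* was lowest with 0.30 ± 0.13. Over the union of annotated exons, *C1qb* dropped to 2.70 CPM per kb at 2 wks, below *C1qc* (4.13), *Cd68* (4.98) and *Mrc1* (3.98), so its place depended on the length used. Levels per kb were not corrected for the GC trends, which were negative at E18.5 and positive at 2 wks. With 58.9% GC in *C1qa* and 43.0% in *Mrc1*, the order of genes may depend on GC too, which was not tested.

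Single mice differed along much of the set. At 7 wks replicate 1 was the highest of its age for 9 of the 10 genes, against 35.5% of all tested genes. Replicate 4 was the lowest for 9, against 20.6%. Replicate 1 was also the highest for all 6 fibroblast markers (*Pdgfra*, a mesenchymal receptor, 43.9 CPM against 17.6 to 23.0 in the other 3). At 2 wks replicate 4 was the lowest for 8 of the 10 genes and for 5 of the 6 fibroblast markers, against 27.1% of all tested genes. The part of dissected connective tissue in these differences was not tested.

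The genes whose profiles over the 12 libraries lay nearest to each marker were found by the root mean square distance of centered log2 CPM. Genes whose mean log2 CPM was below 1 were left out. *Csf1r* lay nearest to *Tyrobp* (0.26), the myeloid signaling adaptor, and *Lyve1* to *F13a1* (0.22), coagulation factor XIII A, which macrophages make. *C1qa* lay nearest to *C1qc* (0.23), but *C1qb* (0.18) and *C1qc* (0.17) were nearer to *Pcolce*, an enhancer of collagen processing. *Mrc1* lay nearest to *Igsf10* (0.18) and *Fstl1* (0.22), and *Adgre1* to *Olfml1* (0.17). *Cd68* lay nearest to *Orai2* (0.23), *Cd163* to *Axl* (0.29) and *Cx3cr1* to *Itgb3* (0.32). Among the 10, the pair farthest apart was *Lyve1* and *C1qa* (2.00). These distances describe the libraries and rest on 3 ages.

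Ligands and transcription factors of the lineage, a list of 15 genes, were read beside *Csf1r*. From E18.5 to 2 wks 7 rose and 3 fell (median log2 fold change 0.72), beside 31.5% and 34.2% of all tested genes. After 2 wks 0 rose and 1 fell (median -0.48), beside 13.5% and 13.9%. With the GC trends removed, and also with total-count scaling, 6 rose and 7 fell to 2 wks (medians 0.19 and -0.24), so the excess of rises depended on the scaling. *Il34*, the alternative ligand of the CSF1 receptor, rose from 1.12 to 2.43 CPM at E18.5 to 11.4 to 18.6 CPM at 2 wks (log2 fold change 2.98, edgeR adjusted p = 1.30e-06), also with the other scalings. *Csf1*, picked out after its values were seen, had a log2 fold change of -0.29 (edgeR adjusted p = 0.326), and it fell with the GC trends removed (-0.89, edgeR adjusted p = 0.00501) and with total-count scaling (-1.22, edgeR adjusted p = 0.000607). *Spi1* had one of -0.10 (edgeR adjusted p = 0.812), and it too fell under those scalings (-1.18 and -1.02, edgeR adjusted p = 0.00228 and 0.0206). After 2 wks *Spi1* fell by 1.07 (edgeR adjusted p = 0.0405), a call lost with the GC trends removed (-0.74, edgeR adjusted p = 0.0656). *Zeb2*, a repressor that maintains macrophage identity, fell by 1.62 on the log2 scale to 2 wks (edgeR adjusted p = 8.14e-05).

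Of 20 further macrophage and myeloid markers, 14 fell and 1 rose to 2 wks, with a median log2 fold change of -1.02, beside 34.2% and 31.5% of all tested genes. After 2 wks 5 fell and 1 rose (median -0.68), beside 13.9% and 13.5%, and the number that fell ran from 1 without replicate 2 of 2 wks to 10 without replicate 1 of 7 wks. The fallers included *Ptprc*, the pan-leukocyte CD45 (7.86 to 11.2 CPM, then 2.06 to 2.64 CPM), *Fcgr1*, the high-affinity IgG receptor (log2 fold change -2.12), and *Siglec1*, a sialic acid receptor (-2.08). The gene that rose was *Gpnmb*, a lysosomal membrane protein (1.42), which missed the threshold with total-count scaling (0.47, edgeR adjusted p = 0.175). Of 20 markers of tissue-resident macrophages, 6 rose and 2 fell to 2 wks, and 12 fell and 1 rose after it, with median log2 fold changes of -0.23 and -1.07. With one library left out, the number that fell after 2 wks ran from 7 (without replicate 2 of 2 wks) to 12. *F13a1* fell from 141.7 to 174.8 CPM to 13.03 to 23.2 CPM (log2 fold change -3.04) and *Msr1*, a scavenger receptor, by 2.61 on the log2 scale. *Ccl8*, a chemokine, rose from at most 0.055 CPM to 0.48 to 2.24 CPM. The resident list's counts to 2 wks depended on the scaling, with 4 higher and 5 lower after GC correction and 4 higher and 11 lower with total-count scaling.

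Among 19 tested chemokines and their receptors 7 rose and 5 fell to 2 wks, and 0 rose and 7 fell after it (median log2 fold changes -0.23 and -0.40). The first counts lie near the 31.5% and 34.2% of all tested genes, and with total-count scaling 4 rose and 11 fell (median -1.15). *Cxcl14* (log2 fold change 2.73) and *Ccl11* (1.70) rose to 2 wks, also with the other scalings. *Ccr1*, a receptor of monocytes and macrophages, fell in both intervals (log2 fold changes -1.48 and -1.50), and no age overlapped another. *Ccl2*, the main attractant of monocytes, fell after 2 wks (log2 fold change -2.42). Its earlier log2 fold change of -0.52 missed the threshold, and it passed with total-count scaling (-1.44, edgeR adjusted p = 0.0035). Of 18 complement genes other than C1q, 5 rose and 4 fell to 2 wks, and 2 rose and 2 fell after it (median log2 fold changes 0.37 and -0.19). With total-count scaling 2 of these rose and 9 fell to 2 wks (median -0.56), and with the GC trends removed 5 rose and 5 fell. *C3ar1* (receptor of the C3a fragment) fell with the markers to 2 wks (-2.12), and *C5ar1* (receptor of C5a) fell after it (-1.83). In contrast, *Clu* (2.66) and *Cd59a* (1.78) rose to 2 wks, also with the other scalings. The proteases that partner C1q, *C1ra* (0.69) and *C1s1* (-0.08), both picked out after their values were seen, missed the threshold after 2 wks (-0.20 and -0.25, edgeR adjusted p = 0.539 and 0.390).

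**Figure D4:**
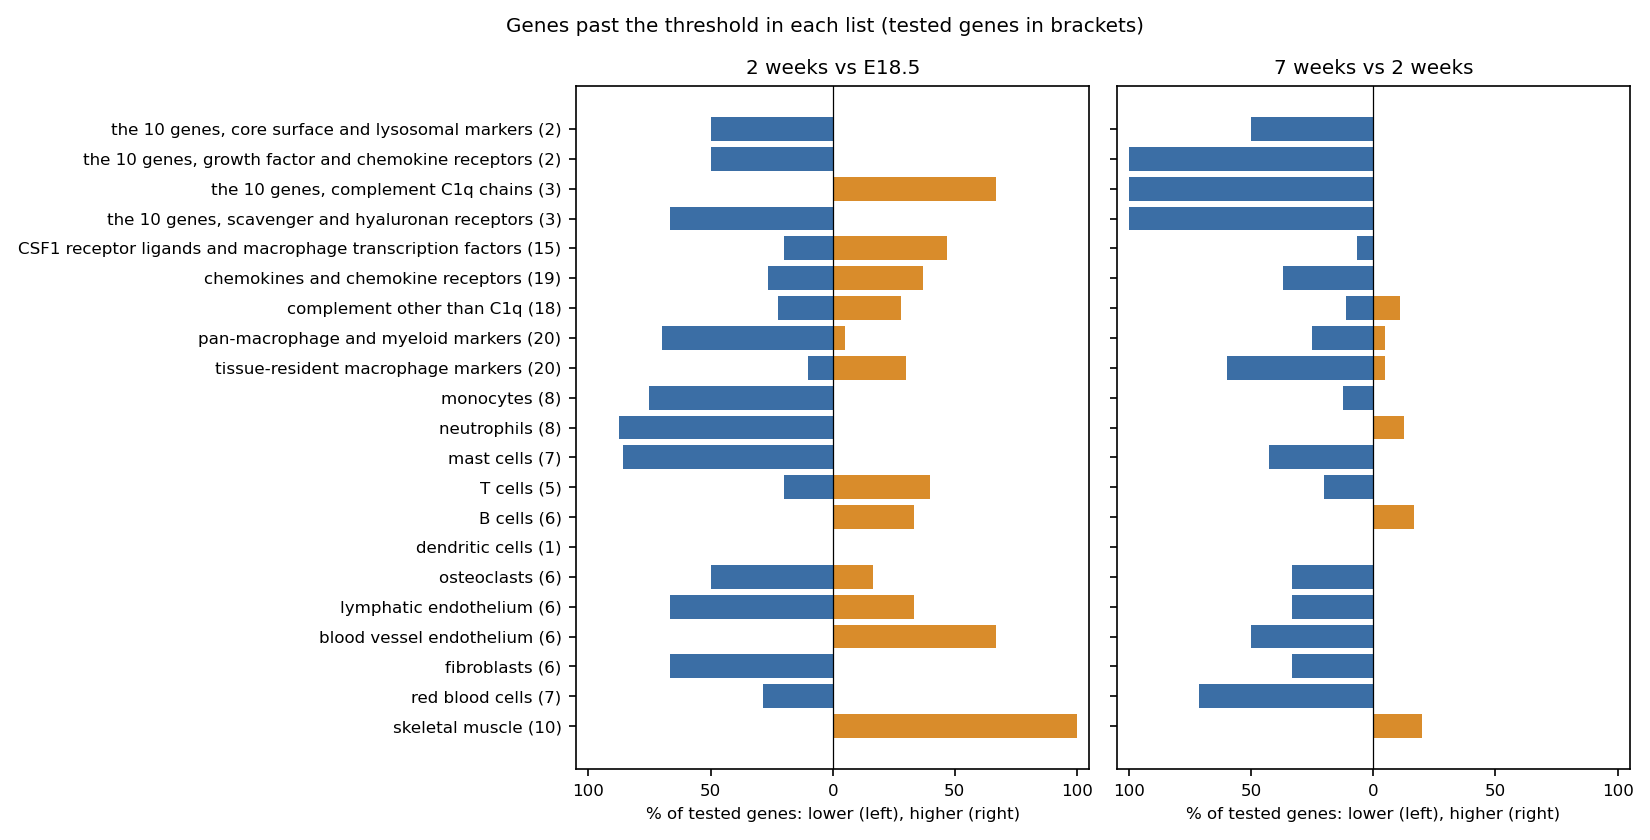
Share of the tested genes of each list (number in brackets) that were lower (left, blue) or higher (right, orange) at an edgeR adjusted p under 0.05, from E18.5 to 2 wks and from 2 to 7 wks with TMM scaling. Bars of the further macrophage and myeloid markers, mast cells, neutrophils and monocytes point left in the first interval, and those of skeletal muscle and blood vessels point right. Over all tested genes 34.2% were lower and 31.5% higher in the first interval.

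Marker lists of other cells of the blood and connective tissue were read alongside. All are given as tested genes that rose and fell from E18.5 to 2 wks. Over all tested genes 31.5% rose and 34.2% fell in that interval, and with total-count scaling 13.2% and 61.8%. Mast cells had 0 and 6 of 7, with a summed level of 393.4 to 878.0 CPM at E18.5, then 25.5 to 52.5 CPM at 2 wks and finally 10.4 to 24.8 CPM at 7 wks. *Cpa3*, the mast cell carboxypeptidase, went from 182.2 to 433.6 CPM to 2.63 to 8.64 CPM. Neutrophils had 0 and 7 of 8, with a summed level of 8.83 to 32.1 CPM at E18.5 and 0.27 to 1.14 CPM at 2 wks. Monocytes had 0 and 6 of 8. Of their defining markers *Ly6c2* was at most 0.22 CPM in any library, with 0 in replicate 1 of 7 wks, and *Ccr2* had a log2 fold change of 0.02 (edgeR adjusted p = 0.948). Fibroblasts had 0 and 4 of 6, with a summed level of 4628 to 8847 CPM, then 3248 to 4842 CPM, then 818.7 to 2868 CPM. Osteoclasts, which also carry *Csf1r*, had 1 and 3 of 6. Red blood cells had 0 and 2 of 7, T cells 2 and 1 of 5, B cells 2 and 0 of 6 and dendritic cells 0 and 0 of 1. The directions of the lymphocyte lists depended on the scaling, with 1 and 3 for T cells and 2 and 3 for B cells after GC correction, and 0 and 3 for each with total-count scaling. Blood vessel endothelium had 4 and 0 of 6 and skeletal muscle 10 and 0 of 10. Single markers of other lists depended on the scaling too. The fall of the fibroblast marker *Dcn* was lost with the GC trends removed (-0.24, edgeR adjusted p = 0.383). The rise of the vessel marker *Pecam1* was lost with total-count scaling (-0.07, edgeR adjusted p = 0.716). The fall of *Pdgfra* and the rise of the vessel marker *Cdh5* passed under both. The part of these cells in the levels of the 10 genes was not tested.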

How the data were processed

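RNA of the TA of WT mice was sequenced as paired-end libraries, 12 in all with 4 mice at each age. Per the submitters' processing notes, reads were prepared with bcl2fastq 2.17.1.14, trimmed with cutadapt 1.10, mapped with STAR 2.5.3a and counted with HTSeq 0.6.1p1. The authors deposited raw counts per Ensembl gene. The strand setting and annotation of the counting are not given in the sources used here, although the kit keeps strand, so reads of *Cd68*, *Csf1r*, *Cx3cr1*, *C1qb*, *C1qc*, *Mrc1* and *Cd163* may include some of genes that overlap them. The methods name GRCm39 and the processing notes mm10. Gene names, coordinates, lengths and GC content come from GENCODE vM39 on GRCm39, which held 51477 of the 55450 identifiers, and promoters from RefSeq on GRCm38.p6.

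Under R 4.3.3, edgeR 4.0.16 was used to filter genes (filterByExpr), scale counts (TMM) and run quasi-likelihood tests, in a single fit of 12 libraries with age as the only term. P-values were adjusted by Benjamini-Hochberg over 19276 genes, with a threshold of 0.05. The fit was tested on simulated data. The biological coefficient of variation was 0.279. Counting error adds to it, most at low counts such as the 34 reads of *Cx3cr1* in replicate 4 of 7 wks. GC trends were removed with loess offsets, and GC content was known for 98.7% of tested genes. Replicates of an age differed beyond counting error in all 18 pairs.

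The 10 genes and the lists were chosen with earlier results of these data known. From the other lists at most the 3 largest rises and falls past the threshold in each comparison were named, with defining markers of other cells. Some genes that this rule names are not reported here. Genes outside this rule are said to be chosen after their values were seen. Alternatives were GC correction, total-count scaling, the replicate number as a block, no filter or a floor of 10 counts per library, DESeq2 1.42.0, a fit restricted to the 8 libraries compared, a log2 fold change beyond 1, other reference genes for ratios, and each library left out in turn. GC correction of ratios, union exon lengths and the alternatives for lists were added after seeing the data.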

Additional observations from a re-analysis of the deposited data

Results flagged for a closer look

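A mouse far from the other 3 of its age was looked for in every gene named by the rules above and in the ratios of the other 9 genes to *Csf1r*, with Dixon's test at 95%. Chance alone marks about 1 in 20 sets, or 12.9 of the 258 tested, and 14 were marked, 3 of them among the 30 sets of the 10 genes. Those 3 were all replicate 1 of 7 wks, at 20.3 CPM for *Csf1r* (6.40 to 8.43 in the other mice), 11.5 CPM for *Cd163* (3.66 to 4.01) and 6.12 CPM for *Lyve1* (0.87 to 1.76). The same mouse stood apart for *F13a1* (19.4 CPM) and *C3* (60.5 CPM).

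At E18.5 replicate 1 was high for *Zeb2* (103.2 CPM) and *Ccl2* (1.58 CPM), replicate 2 for *Pf4* (14.8 CPM), and replicate 3 for the neutrophil genes *S100a8* (8.49 CPM) and *S100a9* (13.2 CPM). At 2 wks replicate 2 was high for *Ccr1* (1.75 CPM) and replicate 4 was low for *Maf* (111.8 CPM). At 7 wks replicate 3 was low for *Slc40a1* (67.3 CPM) and replicate 4 high for *Cd3e* (0.45 CPM).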

How the results depend on the processing

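For the 10 genes, leaving out each library in turn gave 5 to 8 called genes to 2 wks, 6 to 10 after 2 wks, 7 to 9 over the whole span and 3 to 5 for the difference between the intervals. Over all genes the same fits gave 11810 to 13199, 3472 to 6145, 13244 to 13928 and 5273 to 8297 calls, the 3472 without replicate 1 of 2 wks. Requiring a log2 fold change beyond 1 left 5507, 561, 7574 and 2463 of all genes, and 0 of the 10 after 2 wks and 2 for the difference, as a larger change was asked for. GC correction left 1 of the 10 for the difference. The cause was not tested. Genes whose ratio does not overlap numbered 4 to 2 wks and 0 after it with *Cd68* as the reference, and 3 after it with *Adgre1*. With *Csf1r* as the reference and one library left out they numbered 7 to 7, 1 to 3 and 6 to 8 of 9. No share over all tested genes was computed for these alternatives. With *Csf1r* and all 12 libraries that share was 44.6, 21 and 56.7%, in either direction. With the replicate number as a block, 8, 9, 9 and 4 of the 10 and 12470, 5149, 13611 and 7287 of all genes were called. The numbers did not pair the mice, since 2 of 12 same-number correlations between ages passed 0.1 (-0.14 to 0.28) and 3 of 12 libraries correlated best with their own number. DESeq2 called 7, 9, 9 and 5 of the 10. Of the 25624, 21702, 24313 and 22351 genes it tested, it called 13846, 6082, 15239 and 8407.

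Signs turned only for changes that missed the threshold. They were the change of *Cd68* to 2 wks (0.098, 0.060 and 0.041 without replicate 2 of E18.5 and replicates 1 and 2 of 2 wks, range -0.32 to 0.098), of *C1qb* to 2 wks with total-count scaling (-0.45) and of *C1qa* over the whole span without replicate 2 of E18.5 (range -0.62 to 0.014). For the difference between the intervals they were *Csf1r* (-0.25 with total-count scaling, -0.38 with GC correction), *Mrc1* (0.26 with GC correction, -0.64 to 0.12 with a library left out) and *Cd163* (-0.29 with total-count scaling, -0.27 to 0.82 with a library left out). Apart from libraries left out, 256 values of single genes kept sign and side of the threshold, 29 lost and 20 gained a call.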

Other observations

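Some transcription factors and complement genes split the mice of one age. *Cebpa*, a factor of myeloid and fat cells, stood at 3.13, 3.82, 48.6 and 54.1 CPM in replicates 1 to 4 of E18.5, and between 1.93 and 3.92 CPM in all later libraries. *C3*, the central complement component, gave 6.22, 7.86, 178.2 and 93.9 CPM at E18.5, and *Cfd*, complement factor D, gave 0.46, 1.23, 18.1 and 12.8 CPM, both high in the same mice as *Cebpa*. The osteoclast marker *Acp5* gave 0.37, 1.65, 6.22 and 5.65 CPM there. *Irf5*, an interferon regulatory factor, gave 3.04, 3.03, 31.7 and 28.4 CPM at 2 wks, at most 2.72 CPM in the fetal libraries and from 33.0 to 52.6 CPM at 7 wks.

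*Ighm*, the immunoglobulin heavy chain of B cells, rose in both intervals, from 0.94 to 4.40 CPM at E18.5 to 4.73 to 7.48 CPM at 2 wks and 34.1 to 57.6 CPM at 7 wks (log2 fold changes 1.30 and 2.94, edgeR adjusted p = 0.00559 and 0.000140). The first rise missed the threshold with total-count scaling (0.35, edgeR adjusted p = 0.400). *Slc40a1*, the iron exporter that macrophages also carry, rose after 2 wks (1.52, edgeR adjusted p = 0.000537), from 18.0 to 40.01 CPM to 67.3 to 91.1 CPM, the opposite direction to the 9 markers that fell.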
